A study of Mus musculus with 6 samples.

Results

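The genes described here encode the proteins that start branched actin filaments and the small GTPases that switch them on. The 38 genes were named by symbol and looked up in the deposited table of 29595 mouse genes, and all 38 were listed there. They comprise 11 genes of the WAVE complex, 10 of the Arp2/3 complex, 5 of the WASP and WIP group, 5 of the WASH complex, 3 further genes (Whamm, Jmy and Cttn) and 4 small GTPases. Of these, 35 had enough counts to be tested, within 17824 genes tested in all. The 6 RNA libraries came from TKPTS, a single mouse kidney proximal tubule line, cultured without TGF-β1. The Hnf3a group (3 libraries) received the plasmid pcDNA3.1-Hnf3a-Flag, and the pcDNA group (3 libraries) received pcDNA3.1-Flag, so both groups carry a transfected Flag vector. Cells were harvested 24 h after transfection. HNF3α, encoded by Foxa1, is a forkhead transcription factor, and the comparison asks which transcripts differ when it is overexpressed.

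The Arp2/3 complex has little activity by itself and builds a new filament on the side of an existing one only when a nucleation promoting factor binds it. WAVE does this at the leading edge of a moving cell after Rac binds, N-WASP does so mainly after Cdc42 binds, and WASH does so on endosomes. The WAVE complex holds 1 protein of each of 5 kinds: a Nckap1 type scaffold, a Cyfip type subunit that binds Rac, a Wasf (WAVE) protein, an Abi adaptor and the small subunit Brk1. Most of these kinds have paralogues that can replace each other, and Nckap1l (HEM1) is the Nckap1 type scaffold of blood cells, while Nckap1 is its counterpart in most other tissues.

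Nckap1l and Cyfip2 have close paralogues, so the overlap of these coding sequences was measured (GENCODE vM21, GRCm38). Nckap1 and Nckap1l, each with 3405 coding bases, were identical at 61.9% of aligned positions, and their longest shared run had 17 bases. Cyfip1 and Cyfip2 were identical at 77.7%, with a longest run of 24 bases. These runs are shorter than the 150 bases of a read. The Rac genes were not compared in this way, so sharing of reads among Rac1, Rac2 and Rac3 was not tested.

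The libraries held 60473818 to 71154667 estimated counts each. Levels are given as FPKM (fragments per kilobase of transcript, scaled to library size), the scale on which genes of unequal length can be compared, and differences between groups as log2 ratios from the counts. Foxa1 stood at 334, 296 and 284 FPKM with Hnf3a against 9.49, 9.54 and 9.96 FPKM in the pcDNA libraries. Epithelial genes such as Cdh1, Epcam, Krt8, Krt18 and Pax8 each had at least 11256 counts in every library, whereas genes of the mature proximal tubule were low (Slc5a2, 0 to 3 counts, Hnf4a, 4 to 25 counts, Lrp2, 17 to 53 counts). Hnf3a replicates 2 and 3 stood apart from the other 4 libraries in genes of other cell types. Of 10 fibroblast markers, all 10 were above the detection floor of 12 counts in these 2 libraries, against 5 in Hnf3a replicate 1 and 2 to 4 in the pcDNA libraries, and the collagen gene Col1a1 had 2694 and 3099 counts against 0 to 33. Of 19 white blood cell markers, 17 and 18 were above the floor in them, against 6 in Hnf3a replicate 1 and 7 to 9 in the pcDNA libraries, with summed levels of 30.8 to 48.2 CPM (counts scaled to the library total) over all 6 libraries. Values with Hnf3a replicate 1 as the only library of its group are therefore given for Nckap1l, Rac3, Arpc3, Cyfip2 and Rac2. Among the other members with values in that setting, none was called by edgeR, and the smallest adjusted p was 0.0851 (Jmy, log2 difference 0.25). In bulk RNA, fewer cells of a type and less RNA per cell cannot be told apart.

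Among the 35 tested members, 1 was higher and 1 was lower in the Hnf3a group at an adjusted p under 0.05 (edgeR quasi-likelihood test, Benjamini-Hochberg over all genes tested). Over all genes tested, 1.04% were called higher and 2.13% lower, or 3.17% in either direction, so 2 of 35 is near the background. The higher gene was Nckap1l and the lower gene was Rac3. The study itself picked Nckap1l out of these libraries together with its CUT&Tag data, so its call here is not independent evidence. Apart from these libraries, the paper reports a rise of Nckap1l by qPCR and immunoblot in TKPTS cells with Hnf3a. Less Nckap1l protein is reported with Hnf3a shRNA. The same is reported after ischemia-reperfusion in mice with Hnf3a knocked out in renal tubular epithelial cells. The paper also gives ChIP and luciferase reporter results for the Nckap1l promoter. Those experiments were not re-analysed here. The median log2 fold change of the 35 members was -0.01, and that of all genes tested was 0.00 (0.000845). Of the 30 members with a mean of at least 1 FPKM, 13 lay above 0 and 17 below, between -0.53 and 0.29. At an unadjusted p under 0.05 (edgeR) stood 9 of the 35 members, a larger share than the 13.5% of all genes. Among the 30 members with a mean of at least 1 FPKM there were 5. On the library-scaled counts, the groups did not overlap in 8 of the 35 members, 4 in each direction, where 18.9% of all genes did not overlap.

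**Figure D1:**
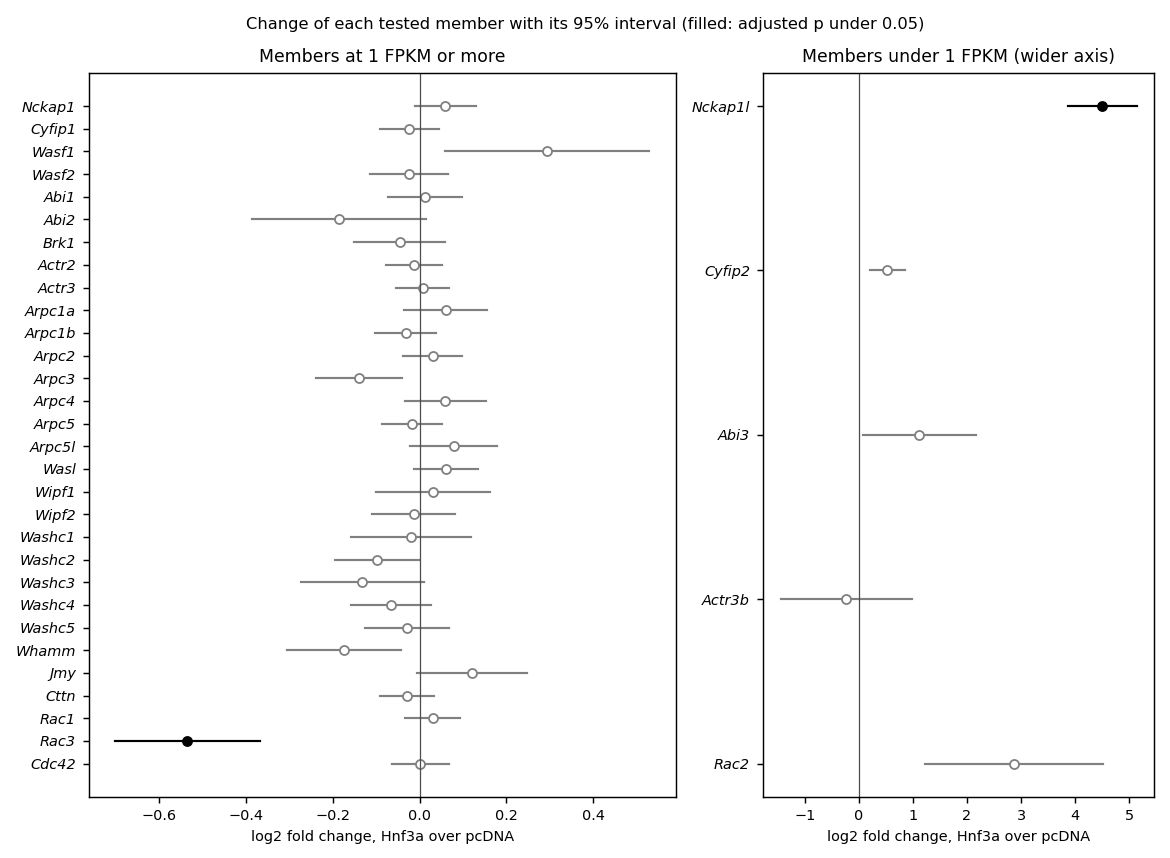
Log2 fold change (Hnf3a over pcDNA, 3 libraries each) of the 35 tested members, with 95% confidence intervals from the edgeR fit. Filled points passed the adjusted threshold, and the right panel, with the 5 members under 1 FPKM, has a wider axis than the left one: Nckap1l lies at 4.51 there and Rac3 at -0.53 in the left panel.

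Nckap1l, a gene of 31 exons at chr15:103453794-103498801 (GRCm38, plus strand), had 167, 255 and 239 counts with Hnf3a against 9, 12 and 6 counts with pcDNA. On the per-length scale these are levels of 0.384, 0.541 and 0.544 FPKM against 0.0210, 0.0254 and 0.0120 FPKM. All 3 Hnf3a libraries were far above the floor of 12 counts and no pcDNA library exceeded it. The fitted log2 fold change was 4.51 (SE 0.29, 95% interval 3.87 to 5.14, adjusted p = 1.05e-06, edgeR). With each pcDNA library set to the floor of 12 counts, the ratio of the group mean levels (CPM) was 17.4, a point value without an interval. With Hnf3a replicate 1 alone in its group, the log2 fold change was 4.17 (adjusted p = 0.000786, edgeR, with the lone library assumed to vary like the pcDNA libraries). In that library, which had 167 counts of Nckap1l, the white blood cell genes Lyz2, Tyrobp, C1qa and C1qb were all at 0 and Ptprc (CD45) had 3 counts, while Cd68, Csf1r, Coro1a, Spi1 and Itgb2 of the same list were above the floor in all 6 libraries. In Hnf3a replicates 2 and 3, Lyz2 had 265 and 273 counts and Ptprc had 31 and 14. Nckap1l rose from the 24.7th to the 54.4th percentile of the levels of all listed genes, many of which were not detected.

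Nckap1, the scaffold of the same position in most tissues, was measured at 45.1, 44.7 and 42.4 FPKM with Hnf3a against 41.6, 42.5 and 42.0 FPKM in the pcDNA libraries. These levels overlapped, and the log2 difference was 0.06 (SE 0.033, 95% interval -0.01 to 0.13, adjusted p = 0.483, edgeR). Thus Nckap1l supplied 1.10% ± 0.226 (SD, n = 3) of the summed FPKM of both scaffolds with Hnf3a against 0.0463% ± 0.016 (SD, n = 3) in the pcDNA group, where its counts did not exceed the floor. As an amount, the mean gain of Nckap1l, 0.470 FPKM, was smaller than the SD of Nckap1 between the Hnf3a libraries, 1.42 FPKM. It was about equal to the Nckap1 SD between the pcDNA libraries, 0.452 FPKM. The SD of Nckap1l itself was 0.092 FPKM with Hnf3a and 0.0068 FPKM with pcDNA.

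The partners of Nckap1l in the complex were compared with it on the FPKM scale within each library. In the Hnf3a libraries the 2 Cyfip genes together were at 31.0 to 45.6 times the level of Nckap1l, the 3 Wasf genes at 43.9 to 69.1 times, the 3 Abi genes at 42.5 to 56.7 times and Brk1 at 87.6 to 119 times. The transcripts of every kind of WAVE subunit were therefore far above those of Nckap1l in these libraries. These RNA ratios do not give the amounts of the proteins. For the pcDNA libraries, in which Nckap1l did not exceed the floor, no ratio is given. A single partner had a level close to that of Nckap1l in all 3 Hnf3a libraries, namely Cyfip2 at 1.07 to 1.77 times. Abi3 was below Nckap1l at 0.166 to 0.422 times, Abi2 was at 2.75 to 3.64 times and Wasf1 at 4.05 to 6.17 times.

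**Figure D2:**
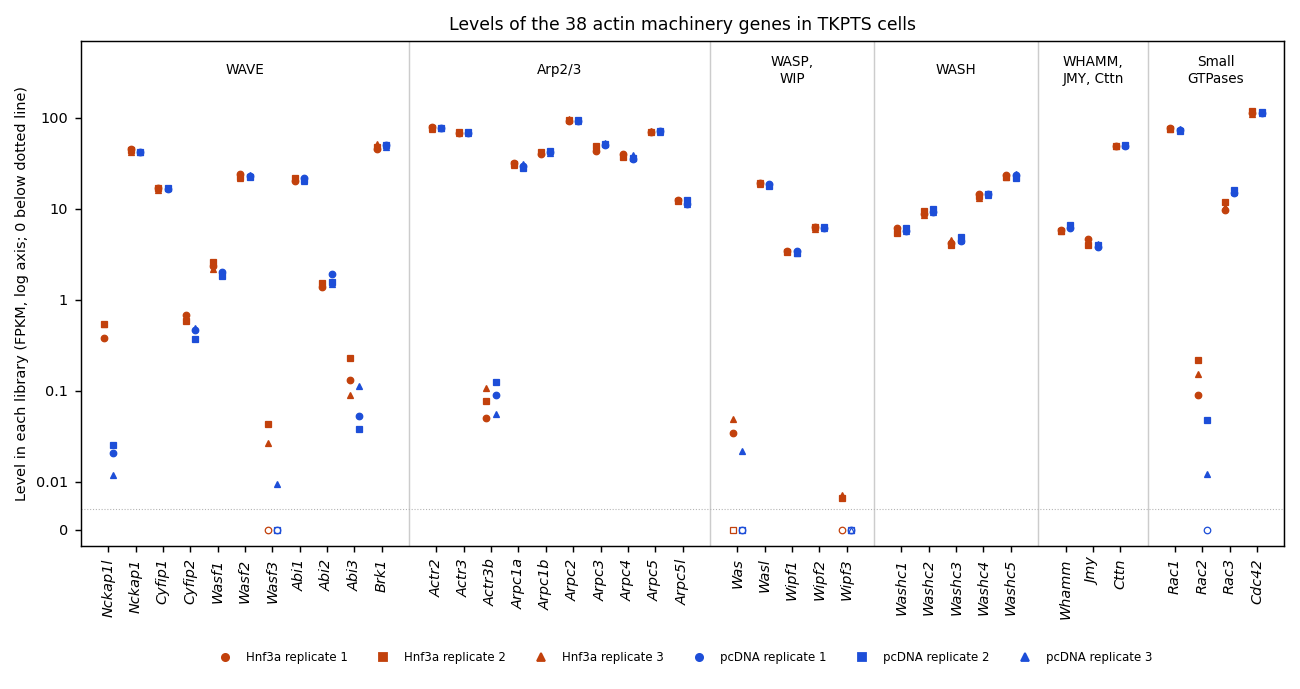
Level of each of the 38 genes in FPKM on a log axis, with 1 point for each of the 6 libraries (orange, Hnf3a, blue, pcDNA) and open points at the bottom for 0. Levels run from 0 to about 118 FPKM (Cdc42), and the points of the 2 groups part widely at Nckap1l.

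Cyfip1 and Cyfip2 encode the subunit through which WAVE senses Rac. Cyfip2 was measured at 0.680, 0.581 and 0.656 FPKM with Hnf3a against 0.461, 0.370 and 0.490 FPKM in the pcDNA libraries. These levels did not overlap, but the log2 difference of 0.53 (SE 0.15, unadjusted p = 0.00336) had an adjusted p of 0.0808 (edgeR) and was not called. With Hnf3a replicate 1 alone in its group, the log2 difference of Cyfip2 was 0.62 (adjusted p = 0.219, edgeR). At an adjusted p under 0.1, which 4.59% of all genes reached, Cyfip2 and Rac2 would join Nckap1l and Rac3. Cyfip1, with 16.2 to 17.0 FPKM in all 6 libraries, made up 96.3% of the family's summed FPKM with Hnf3a against 97.4% in the pcDNA group, and its log2 difference was -0.02.

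Among the Wasf genes, which encode the subunits that touch Arp2/3, Wasf2 was the main form at 21.7 to 24.2 FPKM with a log2 difference of -0.02. Wasf1 had 2.37, 2.58 and 2.20 FPKM with Hnf3a against 2.02, 1.84 and 1.94 FPKM in the pcDNA libraries. The Wasf1 levels did not overlap, and its log2 difference of 0.29 (SE 0.11) was not called (adjusted p = 0.226, edgeR). Wasf3 was too low to be tested, with 0, 19 and 11 counts with Hnf3a against 0, 0 and 4 counts with pcDNA. Its counts above the floor or near it were in Hnf3a replicates 2 and 3, the libraries with most markers of other cell types. The source of those markers was not tested, nor was their part in the Wasf3 counts.

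Of the Abi adaptors, which link the WAVE protein to the complex, Abi1 supplied 92.9% of the family's summed FPKM with Hnf3a against 92.3% in the pcDNA group, with a log2 difference of 0.01. Abi2 lay at 1.40 to 1.898 FPKM with a log2 difference of -0.18 (SE 0.093, adjusted p = 0.424, edgeR). Abi3, an adaptor expressed in blood cells, had 40, 76 and 28 counts with Hnf3a against 15, 12 and 35 counts with pcDNA. The Abi3 groups overlapped, its log2 difference of 1.11 (SE 0.48, adjusted p = 0.324, edgeR) was not called, and the gene overlaps Zfp652, Phospho1 and Gngt2, so its counts are uncertain. The same doubt holds for the other members that overlap a coding gene: Cyfip2 (Fndc9), Cyfip1, Abi1, Arpc1a, Arpc1b, Arpc4, Arpc5l, Wipf3 and Rac1. Brk1, the small subunit on which WAVE assembly depends, had 45.6 to 51.4 FPKM and a log2 difference of -0.05.

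The 10 tested Arp2/3 genes, whose products form the nucleator itself, gave no call in either direction in edgeR at an adjusted p under 0.05, 1 at an unadjusted p under 0.05, and 0 in DESeq2. By mean level in the pcDNA group, the order was Arpc2 (92.3 FPKM), Actr2, which encodes the actin-like Arp2 (77.6 FPKM), Arpc5 (70.97 FPKM), Actr3, which encodes Arp3 (68.0 FPKM), Arpc3 (51.3 FPKM), Arpc1b (42.2 FPKM), Arpc4 (36.7 FPKM), Arpc1a (29.5 FPKM) and Arpc5l (11.7 FPKM). The single values of Arpc5 (69.4 to 71.9 FPKM) and Actr3 (67.2 to 69.1 FPKM) did not overlap in the pcDNA libraries, but the gap between them was smaller than either SD (1.40 and 1.03 FPKM). For the 9 genes above 1 FPKM, the 95% intervals of the log2 difference all lay between -0.24 and 0.18. The largest of these differences was that of Arpc3, a small structural subunit, with 42.8, 49.4 and 48.4 FPKM in the Hnf3a libraries against 50.2, 51.5 and 52.1 FPKM. These levels did not overlap, and the log2 difference of -0.14 (SE 0.046) had an adjusted p of 0.160 (edgeR), but with Hnf3a replicate 1 alone in its group it was -0.26 with an adjusted p of 0.0142, in a fit that called 1.67% of all genes. The lowest Hnf3a level of Arpc3, 42.8 FPKM, was that of replicate 1.

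Where the complex has alternative subunits, their proportions overlapped between groups or moved by less than 2 percentage points. Arpc1b supplied 57.3% ± 1.46 (SD, n = 3) of the Arpc1 FPKM with Hnf3a against 58.9% ± 1.75 in the pcDNA group, and Arpc5 supplied 85.0% ± 0.0434 and 85.9% ± 0.612 of the Arpc5 FPKM. Actr3b, the scarce paralogue of Actr3, had 9 to 20 counts with Hnf3a against 11 to 23 with pcDNA. At that depth its interval was wide (log2 difference -1.45 to 0.98), and a change of Actr3b was not detectable. The summed FPKM of the 10 genes was 482 ± 3.45 (SD, n = 3) with Hnf3a against 480 ± 3.24 in the pcDNA group, a description without a test.

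In the WASP and WIP group, Wasl, which encodes the ubiquitous N-WASP, had 17.9 to 19.3 FPKM over the 6 libraries and a log2 difference of 0.06 (95% interval -0.01 to 0.13, adjusted p = 0.488, edgeR). Was, the blood cell form, had 6, 0 and 9 counts with Hnf3a against 0, 0 and 4 with pcDNA, all below the floor. Thus Wasl supplied 99.9% of the family's summed FPKM with Hnf3a and nearly all of it with pcDNA. The WIP proteins bind and stabilise WASP and N-WASP, and Wipf2 (5.93 to 6.39 FPKM) and Wipf1 (3.23 to 3.48 FPKM) had log2 differences of -0.01 and 0.03. Wipf3 did not exceed 4 counts in any library. None of the 3 tested genes was called by edgeR, 0 had an unadjusted p under 0.05, and DESeq2 called 0.

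The WASH complex activates Arp2/3 on endosomes and thereby helps to sort cargo. All 5 of its genes were tested, and all 5 lay below 0, with log2 differences from -0.02 (Washc1, the subunit that binds Arp2/3) to -0.13 (Washc3) and a median of -0.07. Over all genes, 8874 of the 17824 tested lay below 0. Washc1 changed sign without Hnf3a replicate 2 (0.036) or pcDNA replicate 2 (0.010), and Washc5 without pcDNA replicate 3 (0.008). Washc2, Washc3 and Washc4 stayed below 0 when single libraries were left out. None of the 5 genes was called by edgeR or DESeq2, and 1 had an unadjusted p under 0.05. That gene was Washc2, the FAM21 subunit that ties WASH to retromer, with 8.87, 9.46 and 8.58 FPKM with Hnf3a against 9.32, 9.99 and 9.30 FPKM in the pcDNA libraries. The Washc2 levels overlapped, and its log2 difference was -0.10 (SE 0.045, adjusted p = 0.363, edgeR). Washc5 (strumpellin) was the most abundant of the 5 at 21.7 to 24.3 FPKM, followed by Washc4 at 13.1 to 14.7 FPKM. The summed WASH level was 55.7 ± 1.68 FPKM (SD, n = 3) against 57.5 ± 0.521 FPKM, and the groups overlapped, at 57.5 FPKM in Hnf3a replicate 1 and 57.0 FPKM in pcDNA replicate 2.

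Whamm and Jmy encode promoting factors that act on internal membranes and in the nucleus or cytoplasm, and cortactin (Cttn) holds finished branches together. Whamm had 5.84, 5.77 and 5.77 FPKM with Hnf3a against 6.18, 6.63 and 6.71 FPKM in the pcDNA libraries, which did not overlap. Its log2 difference of -0.17 (SE 0.061) was not called (adjusted p = 0.191, edgeR). Jmy, at 3.84 to 4.69 FPKM, differed by 0.12 (log2, adjusted p = 0.407, edgeR). Cttn, at 48.5 to 49.9 FPKM, had groups that did not overlap on the library-scaled counts, while their FPKM levels met at 49.4. Its log2 difference was only -0.03 with a 95% interval of -0.09 to 0.03.

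The small GTPases switch the promoting factors on, with Rac upstream of WAVE and Cdc42 upstream of N-WASP. Rac3, a Rac isoform known mainly from the nervous system, had 9.76, 11.8 and 10.6 FPKM with Hnf3a against 14.8, 16.05 and 15.4 FPKM in the pcDNA libraries. As counts these are 918, 1207 and 1004 against 1292, 1523 and 1451. All 3 Hnf3a levels of Rac3 lay below all 3 pcDNA levels, and Rac3 fell by 0.53 on the log2 scale (SE 0.077, 95% interval -0.70 to -0.37, adjusted p = 0.00123, edgeR), or by 30.9%. With Hnf3a replicate 1 alone, the log2 difference was -0.66 (adjusted p = 0.00665, edgeR). Rac3 has 6 exons at chr11:120721470-120723969 (plus strand), overlaps no other coding gene and has close neighbours on both sides. Lrrc45, ending 342 bases before it, and Dcxr, 1430 bases after it, had log2 differences of -0.09 (adjusted p = 0.414) and -0.17 (adjusted p = 0.323), and neither was called by edgeR. Both neighbours nevertheless lay lower in all 3 Hnf3a libraries than in any pcDNA library. Lrrc45 had 10.5, 10.9 and 10.9 FPKM against 11.5, 11.5 and 11.2 FPKM. Dcxr had 13.2, 14.3 and 14.2 FPKM against 15.3, 14.6 and 16.8 FPKM (unadjusted p = 0.0378, edgeR). A shared cause was not tested.

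Rac1, the widely expressed isoform, lay at 72.3 to 77.2 FPKM with a log2 difference of 0.03 (95% interval -0.03 to 0.09). As shares of the summed Rac FPKM, Rac3 was at 12.4% ± 1.15 (SD, n = 3) with Hnf3a against 17.3% ± 0.765 in the pcDNA group, and Rac1 at 87.5% ± 1.23 and 82.7% ± 0.793. The summed Rac level was 86.5 ± 1.18 FPKM against 89.0 ± 0.828 FPKM. In absolute terms, the mean difference of Rac3 (Hnf3a minus pcDNA) was -4.71 FPKM and that of Nckap1l was 0.470 FPKM.

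Rac2, the blood cell isoform, had 21, 54 and 36 counts with Hnf3a against 0, 11 and 3 counts with pcDNA. All 3 Hnf3a libraries were above the floor and no pcDNA library was. Its fitted log2 difference of 2.87 (SE 0.763, unadjusted p = 0.00236), which depends on the prior count of the fit, had an adjusted p of 0.0644 in edgeR and was not called, while DESeq2, which called 4.6% of all genes, gave 2.91 with an adjusted p of 0.00714. Without pcDNA replicate 2, where edgeR called 1.44% of all genes, the adjusted p was 0.0484. With Hnf3a replicate 1 alone in its group, the log2 difference of Rac2 was 2.14 and the adjusted p was 0.594 (edgeR). The highest Rac2 counts were in Hnf3a replicates 2 and 3, which also held most white blood cell markers, and the part of these markers in the Rac2 difference was not tested. Cdc42 was the most abundant of the 38 genes at 111 to 118 FPKM, with a log2 difference of 0.00 (95% interval -0.06 to 0.07).

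**Figure D3:**
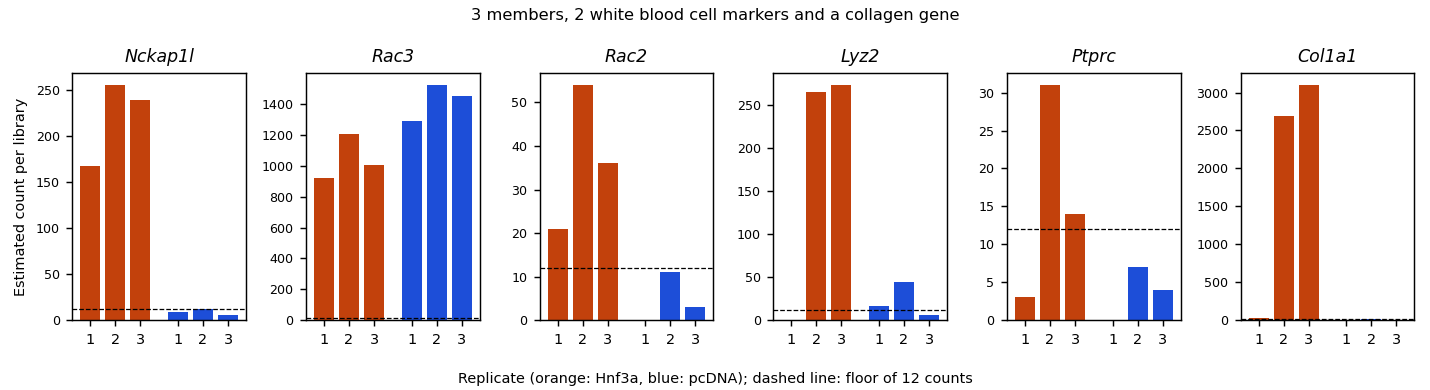
Estimated counts in each library (replicates 1 to 3, orange, Hnf3a, blue, pcDNA) of 3 members, 2 white blood cell markers and Col1a1, each panel on its own axis from 0, with the floor of 12 counts dashed. Nckap1l is high in all 3 Hnf3a libraries. Lyz2, Ptprc and Col1a1 have their highest counts in Hnf3a replicates 2 and 3, and Lyz2 is at 0 in replicate 1. Other white blood cell markers, not drawn (Cd68, Csf1r, Coro1a, Spi1 and Itgb2), were above the floor in every library.

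The paralogue make-up of each position was otherwise much alike in both groups. The leading paralogue was the same gene in all 10 families and in all 6 libraries: Nckap1, Cyfip1, Wasf2, Abi1, Actr3, Arpc1b, Arpc5, Wasl, Wipf2 and Rac1. Members named above as blood cell forms (Nckap1l, Abi3, Was and Rac2) together with Cyfip2 supplied small shares of their families in both groups, of which the largest was Cyfip2 at 3.71% ± 0.304 (SD, n = 3) with Hnf3a against 2.56% ± 0.361 in the pcDNA group. The summed WAVE level was 158 ± 0.736 FPKM (SD, n = 3) with Hnf3a against 156 ± 1.41 FPKM in the pcDNA group.

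**Figure D4:**
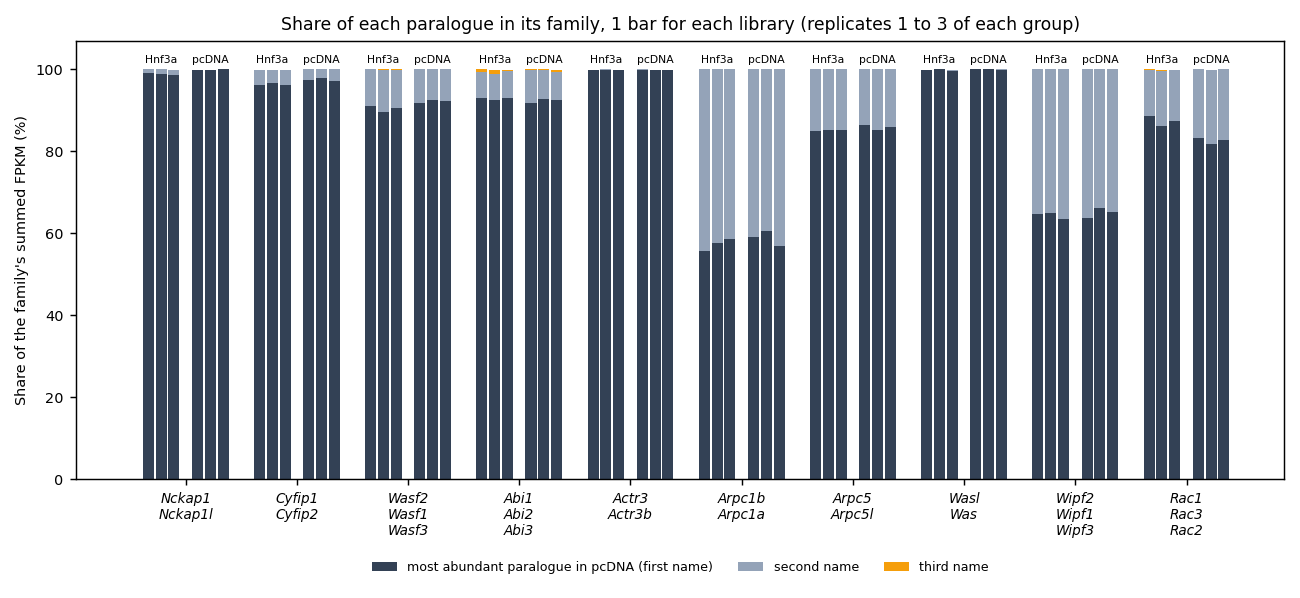
Share of each paralogue in its family's summed FPKM (%), with 1 stacked bar for each of the 6 libraries. The leading paralogue is the same in every bar, Nckap1l is a thin cap of 0.845% to 1.27% in the Hnf3a bars, and the Rac3 segment is narrower in the Hnf3a bars than in the pcDNA bars.

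Other genes of actin assembly were read from 4 lists, which hold 82 genes, of which 75 were tested. None was called higher and 1 of the 75 was lower in edgeR (2.13% of all genes tested were lower), and 14 of the 75 had an unadjusted p under 0.05 (13.5% of all genes). Without Hnf3a replicate 1, 5 list genes were called, in a fit that called 3.47% of all genes. The single gene that fell was Fmnl2, a formin that elongates filaments at the leading edge and is a target of Cdc42. It had 4809, 5335 and 4437 counts with Hnf3a against 5557, 5983 and 5540 counts with pcDNA, and fell by 0.31 on the log2 scale (SE 0.048, adjusted p = 0.00192, edgeR). The median log2 fold changes were 0.01 for the 3 tested actins, -0.03 for the 12 formins, 0.01 for the 29 genes of filament turnover, capping and branch control, and 0.03 for the 31 exchange factors and GTPase activating proteins of Rac and Cdc42. Single genes of the lists could still lie far from these medians: Acta1, skeletal muscle actin, had 17, 165 and 201 counts with Hnf3a against 39, 22 and 20 with pcDNA (log2 difference 2.13, adjusted p = 0.424, edgeR), and Acta2, smooth muscle actin, was not tested at 8, 92 and 96 counts against 4, 7 and 0. Both were highest in Hnf3a replicates 2 and 3, which also held most markers of other cell types. Where those markers came from, and their part in the Acta1 and Acta2 counts, was not tested.

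Because HNF3α binds forkhead sites, promoter windows of the members (RefSeq, GRCm38.p6, 250 bases before to 50 after the start) were searched on both strands for TGTTTAC (found in 3.65% of all windows), for TGTTTGC (found in 5.07%), for TATTTAC (found in 3.04%) and for TGTTTAT (found in 4.6%). Windows were found for 27 of the 38 genes, and some genes have several, so that there were 31 windows. Of these, 4 windows (12.9%) held a match, where 4906 of 32851 windows of all genes (14.9%) did. The genes were Brk1, Cdc42, Jmy and Washc1, none of which was called. There was no entry for Nckap1l, Nckap1, Rac1, Rac2, Abi2, Abi3, Cyfip1, Cttn, Actr3b, Arpc5l and Washc5. The 250 bases before the start of Rac3 (chr11:120721218-120721467, plus strand) are shown because Rac3 was the member that fell. They hold none of these letters, so nothing in them is in capitals.
Rac3 upstream: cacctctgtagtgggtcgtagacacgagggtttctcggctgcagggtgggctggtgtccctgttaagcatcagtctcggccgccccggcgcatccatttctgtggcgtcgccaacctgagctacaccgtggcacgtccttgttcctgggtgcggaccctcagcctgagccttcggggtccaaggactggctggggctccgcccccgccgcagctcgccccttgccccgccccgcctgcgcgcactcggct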

How the data were processed

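Per the labels, polyadenylated RNA of 6 TKPTS cultures was made into dUTP-marked libraries with unique molecular identifiers in the adapters, and both ends were sequenced (150 bases). The submitters' processing notes name mm10, cutadapt 1.9, HISAT2 2.0.4, UMI-tools, StringTie 1.3.4d, DESeq2 and edgeR, without their role. The counting step, the annotation, and whether strand was used are not given in the sources used here. Without strand, reads of overlapping genes cannot be told apart. The authors deposited an estimated count and an FPKM value for each gene and library in a single table. The estimated counts are whole numbers, and 0 columns of values lacked a labelled sample. Genes at exactly 4 counts outnumbered those at 3 or 5, so 1 fragment was taken as up to about 4 counts and the detection floor was set at 12 counts per library, about 3 fragments or 0.169 to 0.198 CPM. The floor covers counting error only.

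The counts were filtered with filterByExpr, scaled by TMM and tested two-sided with edgeR 4.0.16 (estimateDisp, robust glmQLFit, glmQLFTest) in R 4.3.3, without covariates, and the Benjamini-Hochberg adjustment covered every tested gene (threshold 0.05). Shares, ratios and sums used FPKM and had no test. An exact permutation test of 3 against 3 libraries cannot go below 0.1. Alternatives were other filters and scalings, DESeq2 1.42.0, limma 3.58.1 on log2(FPKM + 0.1), with pseudocounts of 1 and 0.01 also, counts divided by 4, a replicate block, and left-out libraries. The scripts were tested on simulated data. Every member is named. From the pathway lists, genes past the threshold are named, and of the marker lists up to 6 genes above the floor in only some libraries of a group. The epithelial genes, and Cd68, Csf1r, Coro1a, Spi1, Itgb2, Acta1 and Acta2, were named after their values were seen. The members and lists were chosen with earlier results of these data known.

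Groups and replicate numbers came from the sample titles. Nothing says that the cultures were handled separately, so p-values measure the spread between these libraries, which may be technical. No pair of libraries held identical values, and their correlations lay between 0.981 and 0.988. Deviations of libraries with the same number correlated at -0.0411, -0.0102 and 0.00998, so no pairing by number was seen. With 3 libraries in each group, these values cannot decide whether equal numbers shared their handling. Start and end were identical in GENCODE vM21 (GRCm38) for 26766 of 29514 shared genes and for 36 of the 38 members, the others being Nckap1l and Arpc3. Exons and coding sequences came from GENCODE vM21. A comparison of protein sequences had been planned and was not run. Some coding sequences are not reported here. CUT&Tag data were not analysed here.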

Additional observations from a re-analysis of the deposited data

How the results depend on the processing

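Over 17 alternatives, the 35 tested members gave 587 values, of which 583 kept their call or lack of one and 4 passed the threshold only under the alternative. No called member changed sign or lost its call. Rac3 was called in all 17 (log2 -0.658 to -0.477, adjusted p 1.01e-07 to 0.0185) and Nckap1l in the 16 that kept it (0.545 to 4.74, adjusted p 1.69e-30 to 0.00363), with 0.545 from limma on log2(FPKM + 1), which understates changes of low genes. The 4 added calls were Cyfip2 (0.527, adjusted p = 0.0434) and Rac2 (2.91, adjusted p = 0.00714) in DESeq2, Rac2 without pcDNA replicate 2 (4.41, adjusted p = 0.0484, edgeR) and Arpc3 with only Hnf3a replicate 1 kept (-0.261, adjusted p = 0.0142, edgeR). Over all alternatives the adjusted p ranged from 0.0434 to 0.294 for Cyfip2, from 0.00714 to 0.594 for Rac2, from 0.0142 to 0.386 for Arpc3, from 0.183 to 0.521 for Wasf1 and from 0.172 to 0.75 for Abi3. These ranges cover only the alternatives that kept the gene. Rac2 and Abi3 had no value with counts divided by 4 or under the filter of 1 FPKM in 3 libraries, and Cyfip2 had none under that filter. The cause of the spread was not tested.

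The 2 called members became 1 under the stricter filter of 1 FPKM in 3 libraries, which removes Nckap1l and called 596 genes in all. They became 4 with DESeq2 (where 4.6% of all genes were called) and 4 at an adjusted p under 0.1 (4.59% of all genes). At an unadjusted p under 0.05 there were 9 of 35, against 13.5% of all genes. When single libraries were left out, 2 to 3 members were called, with 3 without pcDNA replicate 2 (1.44% of all genes). The 565 genes called in all became 265, 248 and 271 with limma at pseudocounts of 0.1, 1 and 0.01 FPKM, 322 with only Hnf3a replicate 1 kept, 819 with DESeq2, and 263 to 643 when single libraries were left out. They were 263 without Hnf3a replicate 2, and 286, 267 and 349 without pcDNA replicate 1, 2 or 3. With the replicate block, 2 members and 463 genes were called, and as no pairing by number was seen this is given only here. The pathway lists had 2 called genes with DESeq2 (4.6% of all genes were called there) and 1 to 5 when single libraries were left out, with 5 without Hnf3a replicate 1 (3.47% of all genes). The Nckap1l share of its family was 1.02% to 1.23% in the Hnf3a group and 0.0396% to 0.0551% in the pcDNA group when single libraries were left out. With counts in place of FPKM, 33 of 46 family shares moved by more than 1 SD, since counts are not scaled by length. The planned comparison of protein sequences was not run. Depth limited Actr3b, Wasf3, Was, Wipf3, Abi3 and Rac2, whose counts lay near the floor.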
